A study of Homo sapiens with 9 samples.

Results

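The 3 RNA sequencing libraries of PANC-1 cells treated with a short interfering RNA (siRNA) against SIRT6 (siSIRT6) were compared directly with the 3 libraries of the same cells treated with an siRNA against KDM5C (siKDM5C). These are 6 of the 9 libraries of the study, all taken 48 hours after transfection, and the other 3 received the control, headed siNC in the deposited tables. No control library entered the contrast or its fit, and control values are given only as background. PANC-1 is an established human cell line from a pancreatic cancer. The siRNA sequences and their number per target were not given in the sources used here, and each group stands for its siRNA treatment as labelled. The labels do not state whether the 3 replicates of a group came from separate cultures, and the p-values here measure only the spread between these libraries, which may be technical. In bulk samples fewer cells of a kind and less RNA per cell cannot be told apart.

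SIRT6 is a nuclear sirtuin, an NAD-dependent enzyme that removes acetyl groups from histone H3 and takes part in DNA repair and in the control of metabolic and inflammatory genes. KDM5C is a demethylase encoded on the X chromosome that removes methyl groups from lysine 4 of histone H3, a mark of active promoters. Both enzymes act on chromatin at many genes, and both remove marks that accompany transcription. A direct comparison of their knockdowns asks which transcripts separate the 2 treatments, whether or not either treatment moved them from the control.

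Reads assigned to genes, as recovered from the FPKM values, numbered from 18496101 (siKDM5C replicate 2) to 26905611 (siSIRT6 replicate 3) in the 6 libraries. For a transcript of 1 kilobase with 0 reads this depth allows up to 0.111 to 0.162 FPKM (fragments per kilobase of transcript, relative to library size), taking 3 reads as the limit and counting error only. Reads from mitochondrial DNA made up 6.53% to 6.91% of the siSIRT6 libraries and 5.67% to 6.61% of the siKDM5C libraries. Libraries correlated at a Pearson r of 0.991 within siSIRT6, 0.981 to 0.985 within siKDM5C and 0.960 to 0.965 between the groups, across genes on the log2(FPKM + 1) scale. The first principal component held 63.2% of the variance and separated the knockdowns, and the second held 13.8% and set siKDM5C replicate 2 apart, at a score of 23.2 against -11.7 and -8.83 for the other siKDM5C libraries. The median standard deviation of a gene between replicates was 0.127 log2 units in siKDM5C and 0.0566 in siSIRT6, so siKDM5C replicate 2 was also left out in turn, and counts without it are given below. Leaving out 1 library moved a count of called members by more than 1.5 times in 30 of the 43 gene lists. Of the pancreatic acinar, islet and endothelial markers with deposited values, every one stayed under 1 FPKM in all 6 libraries, and the epithelial keratins KRT8 and KRT18 stood at 240 FPKM or more. Of 7 immune markers with deposited values 5 stayed under 1 FPKM in all 6 libraries, and the list summed to 36.1 to 38.8 FPKM in siSIRT6 and 72.4 to 93.4 in siKDM5C. Nearly all of that sum came from CD68, a lysosomal membrane protein used as a macrophage marker, which was lower in siSIRT6 at -1.13 ± 0.10 (adjusted p = 0.000491), and the part of other cells in the results was not tested.

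**Figure D1:**
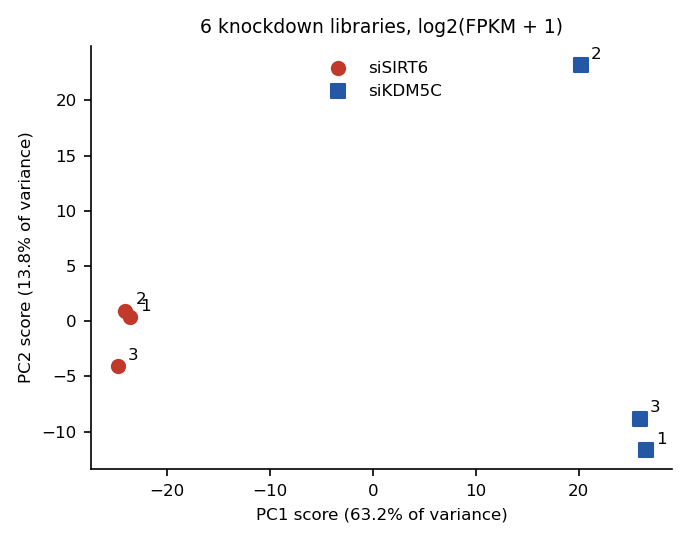
Scores of the 6 knockdown libraries on the first 2 principal components of log2(FPKM + 1), with the replicate number beside each point. The siSIRT6 libraries lie together at the left, and siKDM5C replicate 2 lies at 23.2 on the second component, away from the other 2 siKDM5C libraries at -11.7 and -8.83.

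Of 36753 genes with deposited values, 15519 had at least 1 FPKM in at least 3 of the 6 libraries and were tested. With limma, 5753 genes (37.1%) differed at an adjusted p below 0.05, of which 2675 (17.2% of the genes tested) were higher and 3078 (19.8%) were lower in siSIRT6 than in siKDM5C. The median size of a called difference was 0.43 log2 units. Differences of at least 1 log2 unit were called for 163 genes (1.05%) higher and 173 genes (1.11%) lower in siSIRT6. All 3 libraries of one group lay above all 3 of the other for 8155 genes (52.5%), 3769 (24.3%) higher and 4386 (28.3%) lower in siSIRT6. Differences throughout are siSIRT6 minus siKDM5C on the log2(FPKM + 1) scale, which understates the change of genes at low FPKM. Each is given ± its standard error (SE, n = 3 per group) with the adjusted p of limma.

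**Figure D2:**
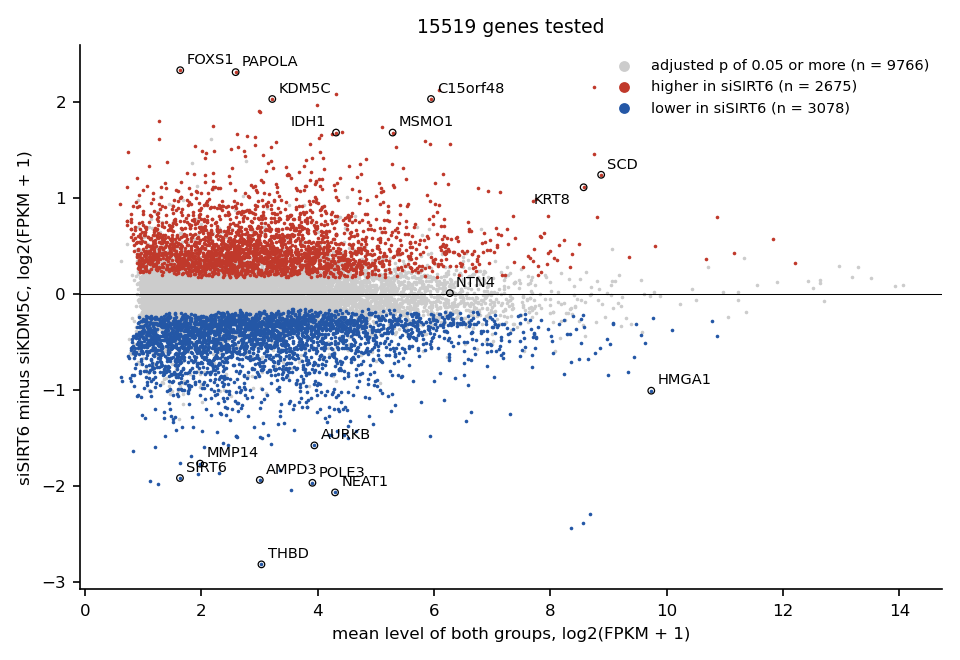
Difference between the knockdowns (siSIRT6 minus siKDM5C, log2(FPKM + 1)) against the mean level of both groups on the same scale, 1 point per gene tested, for 15519 genes. Red points (2675) were called higher and blue points (3078) lower in siSIRT6, and THBD, at -2.82, had the largest difference in either direction.

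The targeted genes separated the groups as labelled. Positions of genes are those of GENCODE release 29 (GRCh38). SIRT6 (ENSG00000077463, chr19:4174109-4182604) stood at 0.795, 0.509 and 0.487 FPKM in siSIRT6 and 5.05, 4.6 and 5.39 in siKDM5C, with 6.2, 5.17 and 7.17 in the control libraries. SIRT6 met the expression minimum through its siKDM5C libraries alone, so its difference of -1.92 is given as a description. The siSIRT6 mean was 0.119 of the siKDM5C mean. KDM5C (ENSG00000126012, chrX:53191321-53225422) stood at 17.9, 17.6 and 17.9 FPKM in siSIRT6 and 3.65, 3.31 and 3.89 in siKDM5C, with 18, 18.4 and 18.8 in the controls. The KDM5C difference was 2.03 ± 0.064 (adjusted p = 4.98e-05), a siSIRT6 mean 4.92 times that of siKDM5C. For both targets the libraries of the other knockdown lay close to or within the control range, and the knockdowns did not overlap. Of the sirtuins and enzymes of NAD synthesis, 2 of the 12 tested members were higher in siSIRT6 and 2 were lower, SIRT6 itself among the latter. SIRT7, a nucleolar sirtuin, was the other lower member at -0.35 ± 0.087 (adjusted p = 0.0204). NAMPT, the rate-limiting enzyme of NAD salvage, was higher by 0.31 ± 0.087 (adjusted p = 0.0332). Both calls were lost without any 1 of the siSIRT6 libraries or without siKDM5C replicate 1, and that of NAMPT also without siKDM5C replicate 3, under the replicate block and without the expression minimum, with a highest adjusted p of 0.0763 for SIRT7 and 0.1 for NAMPT. The count of 2 higher members was 0 without any 1 of the siSIRT6 libraries. Among histone H3 demethylases 5 of the 20 tested members were higher in siSIRT6 and 5 were lower, and these counts again include KDM5C, with 3 higher without siSIRT6 replicate 1 or 2. KDM3A, which acts on lysine 9 of histone H3, was higher by 0.51 ± 0.055 (adjusted p = 0.000971), and KDM1A was lower at -0.32 ± 0.052 (adjusted p = 0.0045).

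Other than the targets, the genes with the largest positive differences were high in siSIRT6, low in siKDM5C, or both, relative to the control. FOXS1 (ENSG00000179772, chr20:31844301-31845619), a forkhead transcription factor, stood at 6.28, 5.21 and 6.36 FPKM in siSIRT6 and 0.402, 0.208 and 0.561 in siKDM5C, and at 0.802, 0.443 and 0.658 in the controls. All siSIRT6 values of FOXS1 lay above every other library. This gene met the expression minimum through its siSIRT6 libraries alone, so its difference of 2.33 is given as a description. PAPOLA (ENSG00000090060, chr14:96501433-96567111), the main nuclear poly(A) polymerase, stood at 12.2, 12.5 and 12.4 FPKM in siSIRT6 and 1.8, 1.76 and 1.53 in siKDM5C. Its control values were 13.1, 13.6 and 13, so the siKDM5C libraries were the low ones, and the knockdowns differed by 2.31 ± 0.063 (adjusted p = 4.98e-05). C15orf48 (ENSG00000166920, chr15:45430529-45448761), a small mitochondrial protein of the respiratory chain, showed the same arrangement, with 120, 126 and 125 FPKM in siSIRT6 and 32.6, 27.2 and 28.9 in siKDM5C and 122, 123 and 121 in the controls. The C15orf48 difference was 2.03 ± 0.076 (adjusted p = 5.38e-05). The microRNA gene MIR147B lies within C15orf48 on the same strand, and its difference of 2.16 cannot be separated from that of its host transcript.

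IDH1, the cytosolic isocitrate dehydrogenase, stood at 34.5, 34.7 and 35 FPKM in siSIRT6 and 10.7, 10.6 and 9.12 in siKDM5C, with 34.3, 34.9 and 35 in the controls. SH3BP4, an endocytic adaptor protein, stood at 32.3, 32.7 and 33.5 FPKM in siSIRT6 and 9.22, 9.77 and 10.1 in siKDM5C, with 40.9, 41.2 and 39.5 in the controls. For both genes the siKDM5C libraries lay below the siSIRT6 and the control libraries, and the differences were 1.68 ± 0.071 (adjusted p = 5.94e-05) and 1.66 ± 0.056 (adjusted p = 4.98e-05). CPA4, a secreted carboxypeptidase, was above the control in both knockdowns, at 28.8, 28.5 and 27.9 FPKM in siSIRT6 and 8.02, 8.62 and 8.44 in siKDM5C against 0.833, 1.34 and 1.04 in the controls. The knockdowns nonetheless differed by 1.65 ± 0.053 (adjusted p = 4.98e-05), a siSIRT6 mean 3.4 times that of siKDM5C. RAB27B, a small GTPase of secretory vesicles, stood at 13.8, 14.5 and 14.7 FPKM in siSIRT6 and 2.79, 4.56 and 2.4 in siKDM5C, a difference of 1.89 ± 0.18 (adjusted p = 0.00059). LXN, an inhibitor of carboxypeptidases, stood at 60.9, 63 and 61.7 FPKM in siSIRT6 and 15.5, 19.8 and 18.3 in siKDM5C with 32.1, 30.3 and 25.1 in the controls, so the control lay between the knockdowns. LYNX1, a membrane-anchored modulator of nicotinic acetylcholine receptors, differed by 1.91 ± 0.092 (adjusted p = 8.30e-05). The readthrough gene LYNX1-SLURP2 overlaps it on the same strand and had a difference of 1.67. TGFB2-OT1 (1.69) likewise overlaps TGFB2, described with the TGF-beta genes.

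Thrombomodulin (THBD), the cell surface receptor that turns thrombin towards the activation of protein C, had the largest negative difference. THBD (ENSG00000178726, chr20:23045633-23049741) stood at 2.1, 2.15 and 1.97 FPKM in siSIRT6 and 18.7, 22.5 and 21.3 in siKDM5C, with 0.857, 0.857 and 0.743 in the controls. Both knockdowns lay above the control and the siKDM5C libraries were far the highest, a mean 10 times that of siSIRT6, with a difference of -2.82 ± 0.079 (adjusted p = 4.98e-05). NEAT1 (ENSG00000245532, chr11:65422774-65445540), the long non-coding RNA that scaffolds paraspeckles, stood at 10.4, 8.92 and 6.69 FPKM in siSIRT6 and 42.5, 34.4 and 40.4 in siKDM5C, with 31.6, 39.2 and 36.4 in the controls. Here siSIRT6 was the low group, and the difference was -2.07 ± 0.15 (adjusted p = 0.000276). Another 3 annotated short RNAs inside NEAT1, looked at after their values were seen, were called lower too and cannot be separated from it. POLE3 (ENSG00000148229, chr9:113407235-113410672), a histone-fold subunit of DNA polymerase epsilon, stood at 6.41, 6.77 and 6.51 FPKM in siSIRT6 and 32.1, 25.9 and 28.3 in siKDM5C, with 25.9, 26.2 and 25.8 in the controls. Again the siSIRT6 libraries lay below both other groups, with a difference of -1.97 ± 0.084 (adjusted p = 5.94e-05). C9orf43 overlaps POLE3 on the opposite strand and differed by -1.56. Since the counting strand was not given in the sources used here, reads of the pair cannot be told apart. AMPD3, an AMP deaminase, stood at 3.34, 2.9 and 3.06 FPKM in siSIRT6 and 14.4, 15.1 and 14.7 in siKDM5C, with 22.9, 23.1 and 24 in the controls. Both knockdowns were below the control, siSIRT6 much more so, and they differed by -1.94 ± 0.062 (adjusted p = 4.98e-05).

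MMP14, a membrane-anchored metalloproteinase that activates MMP2, stood at 1.14, 1.2 and 1.04 FPKM in siSIRT6 and 6.33, 6.12 and 6.4 in siKDM5C, with 1.35, 1.37 and 1.19 in the controls. CALB2, the calcium-binding protein calretinin, stood at 2.18, 2.13 and 2.18 FPKM in siSIRT6 and 8.47, 8.26 and 8.77 in siKDM5C, with 1.39, 1.23 and 1.13 in the controls. For both genes the siKDM5C libraries were the high ones, and the differences were -1.77 ± 0.061 (adjusted p = 4.98e-05) and -1.58 ± 0.055 (adjusted p = 4.98e-05). YJEFN3 followed the same order at 1.24, 0.927 and 0.741 FPKM in siSIRT6 and 5.11, 4.49 and 6.43 in siKDM5C, a difference of -1.69 ± 0.14 (adjusted p = 0.000378), and shares sequence on its strand with NDUFA13. SDC1, the heparan sulfate proteoglycan syndecan-1, stood at 12.7, 12.2 and 13 FPKM in siSIRT6 and 39.9, 34.7 and 38.4 in siKDM5C, with 18.2, 16.7 and 20.2 in the controls. The control libraries of SDC1 lay between the knockdowns, which differed by -1.50 ± 0.068 (adjusted p = 6.98e-05). PCLAF, a partner of the replication clamp PCNA, stood at 4.2, 4.34 and 4.41 FPKM in siSIRT6 and 15.8, 14.1 and 14.3 in siKDM5C, with 7.71, 7.38 and 8.78 in the controls, and differed by -1.57 ± 0.063 (adjusted p = 5.94e-05). The microRNA genes MIR4690 (-1.87 ± 0.28, adjusted p = 0.0031) and MIR5196 (-1.84 ± 0.24, adjusted p = 0.00197) lie within PCNX3 and CD22 on the same strand. Their values count reads of long RNA libraries, not mature microRNAs, and rest on few reads. The mean over the 6 libraries was 6 reads for MIR4690 and 27.8 for MIR5196.

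**Figure D3:**
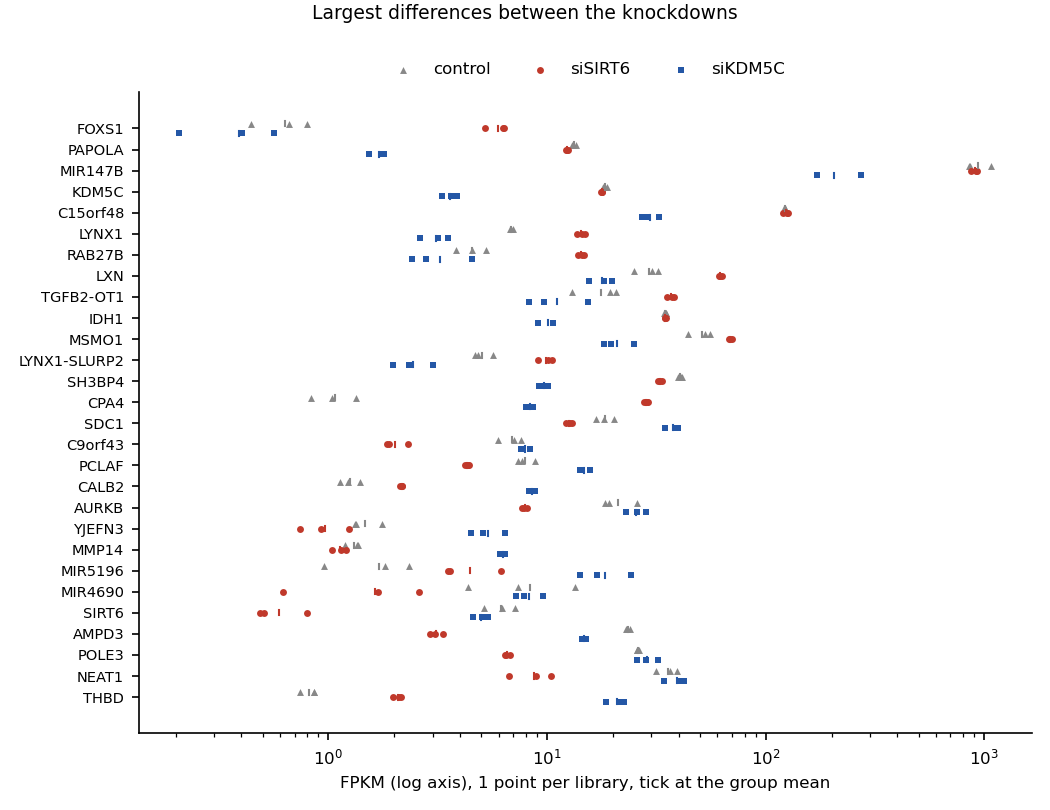
FPKM of the 14 genes with the largest differences in each direction, on a log axis, 1 point per library and a tick at each group mean, for siSIRT6, siKDM5C and control. Genes run from the largest positive difference (FOXS1) at the top to the largest negative one (THBD) at the bottom, and for PAPOLA, C15orf48, IDH1 and KDM5C the siKDM5C points lie far below the other groups, at 1.8 FPKM or less for PAPOLA.

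Gene lists were then read by how many members passed the test in each direction, beside the 17.2% and 19.8% of all genes tested. The lists with a median difference of at least 0.25 in size were few (12 of 43), and none of these 12 medians changed sign in any of the 18 alternative settings. Below, the medians against the control come from separate fits of each knockdown and the same 3 control libraries, so they are not independent of each other.

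**Figure D4:**
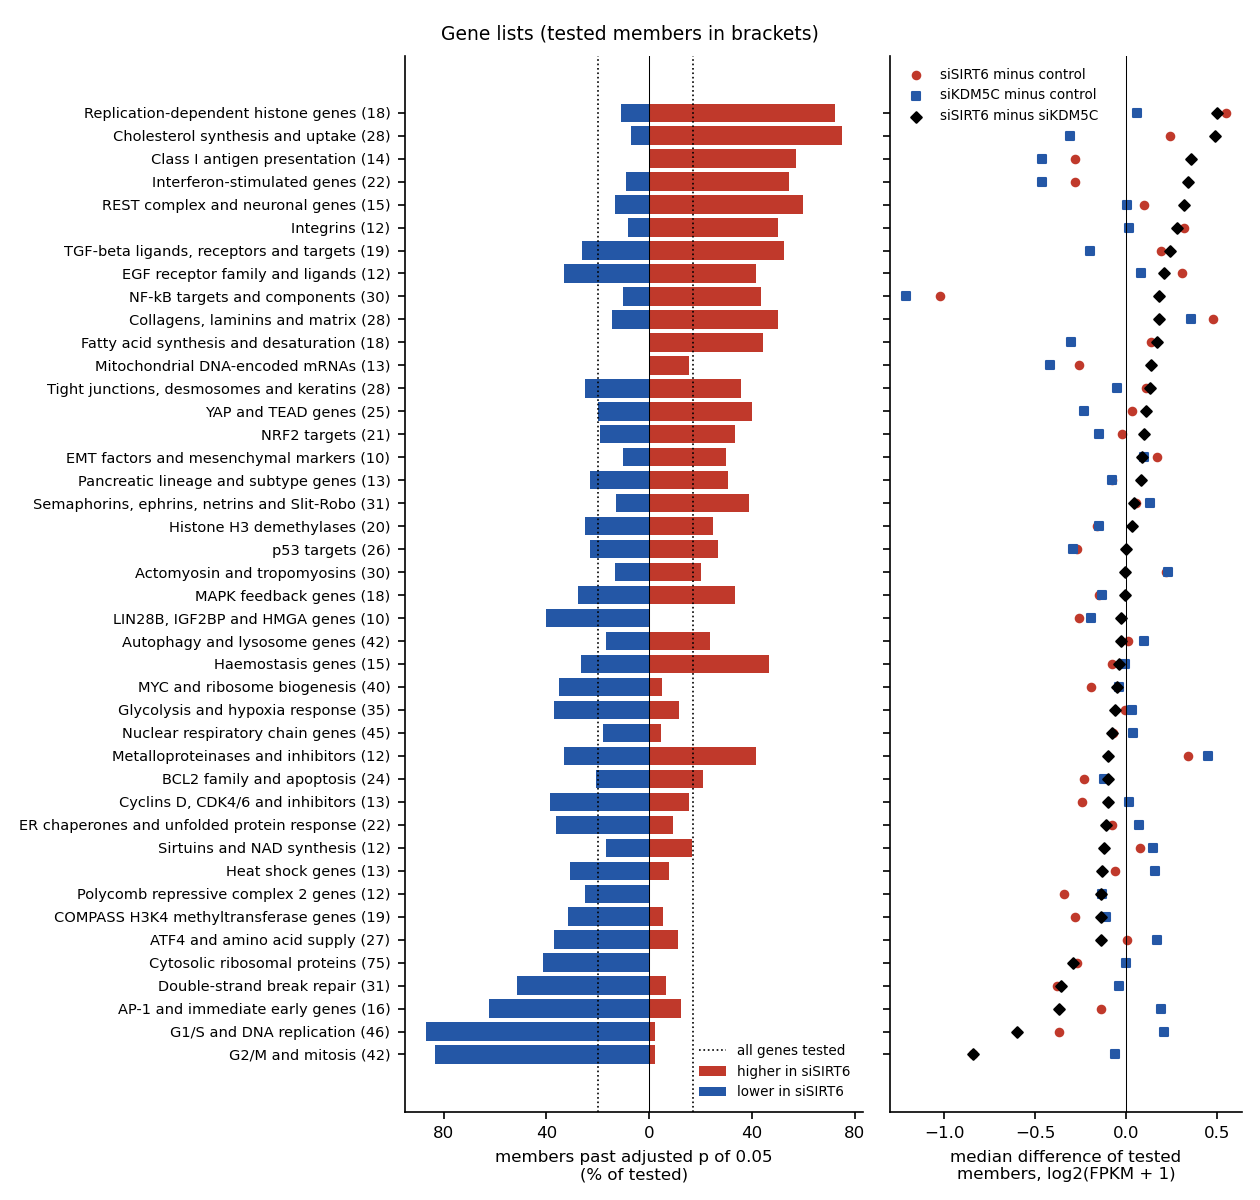
Left, percent of the tested members of each gene list called higher (red) or lower (blue) in siSIRT6 than in siKDM5C, with dotted lines at the 17.2% and 19.8% of all genes tested; right, the median difference of the same members between the knockdowns and of each knockdown from the control, log2(FPKM + 1). The replication-dependent histone and cholesterol lists lie at the top (medians 0.50 and 0.49) and the G1/S and G2/M lists at the bottom (-0.60 and -0.84).

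Transcripts of mitosis formed the list with the most negative median. In the list of G2/M and mitosis genes 1 of the 42 tested members was higher in siSIRT6 and 35 were lower, with a median of -0.84. Leaving out siKDM5C replicate 2 gave 1 higher and 36 lower. The median against the control was -0.84 for siSIRT6 and -0.06 for siKDM5C. Summed over the list, the libraries held 560 to 569 FPKM in siSIRT6, 923 to 984 in siKDM5C and 961 to 977 in the controls. AURKB, the kinase of the chromosomal passenger complex, stood at 8.1, 7.72 and 7.84 FPKM in siSIRT6 and 28.3, 22.9 and 25.7 in siKDM5C, with 19.1, 18.4 and 25.9 in the controls. The siKDM5C libraries overlapped the control range and the siSIRT6 libraries lay far below, with a difference of -1.58 ± 0.083 (adjusted p = 9.82e-05). ESPL1, the separase that opens cohesin at anaphase, stood at 2.77, 2.51 and 2.7 FPKM in siSIRT6 and 8.8, 9.13 and 9.97 in siKDM5C, a difference of -1.49 ± 0.068 (adjusted p = 6.98e-05). KIF2C, a kinesin that depolymerises microtubules at kinetochores, stood at 10.1, 10 and 10.3 FPKM in siSIRT6 and 25.7, 25.7 and 27.4 in siKDM5C, with 23.7, 23 and 22.3 in the controls. PLK1, the Polo-like kinase of mitotic entry, stood at 8.12, 8.37 and 8.42 FPKM in siSIRT6 and 19.7, 20 and 20.7 in siKDM5C, with 23.3, 23.9 and 26 in the controls. PRC1, which bundles the midzone of the spindle, stood at 12.1, 12.3 and 12.9 FPKM in siSIRT6 and 30.5, 29.3 and 29.6 in siKDM5C, with 21.5, 20.3 and 21.2 in the controls. No siSIRT6 library of these 3 genes reached the siKDM5C or control range, and their differences were -1.29 ± 0.053 (adjusted p = 5.94e-05), -1.18 ± 0.052 (adjusted p = 5.94e-05) and -1.20 ± 0.053 (adjusted p = 5.94e-05). MKI67 (-1.20), CDK1 (-1.11), TOP2A (-0.97) and CCNB1 (-0.72) were also called lower in siSIRT6. CDC25B, a phosphatase that activates cyclin-dependent kinases, was the 1 member higher in siSIRT6, at 87.4, 87.6 and 88.5 FPKM in siSIRT6 and 46.4, 47.7 and 51.2 in siKDM5C with a difference of 0.85 ± 0.057 (adjusted p = 0.000212). Members that did not pass the test were CENPE (-0.45), SPC25 (-0.38), ECT2 (-0.18), BUB3 (-0.075), KIF4A (-0.05) and CENPA (-0.038).

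Promoters of the members with the smallest adjusted p are shown because genes of this list often share short elements near their start, the cell cycle genes homology region (CHR, searched as TTTGAA or TTCGAA) and the CCAAT box (CCAAT), each on both strands. The sequences run from 250 bases before to 25 bases after the annotated start, from RefSeq (GRCh38.p14), with matches in capitals. KIF2C lies at chr1:44739587-44739861 on the plus strand and has no match to either motif. PLK1 at chr16:23678639-23678913 on the plus strand and PRC1 at chr15:90994511-90994785 on the minus strand each have 1 CCAAT box followed by 1 CHR.
KIF2C: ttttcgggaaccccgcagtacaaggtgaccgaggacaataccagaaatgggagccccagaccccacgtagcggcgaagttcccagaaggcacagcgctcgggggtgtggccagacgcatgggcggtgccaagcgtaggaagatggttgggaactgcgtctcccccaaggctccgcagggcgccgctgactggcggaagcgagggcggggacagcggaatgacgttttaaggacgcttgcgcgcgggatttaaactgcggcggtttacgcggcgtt
PLK1: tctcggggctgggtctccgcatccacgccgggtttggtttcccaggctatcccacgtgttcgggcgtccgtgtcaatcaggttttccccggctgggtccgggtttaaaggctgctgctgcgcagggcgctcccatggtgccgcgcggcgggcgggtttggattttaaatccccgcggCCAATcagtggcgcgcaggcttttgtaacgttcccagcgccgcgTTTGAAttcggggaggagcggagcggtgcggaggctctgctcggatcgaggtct
PRC1: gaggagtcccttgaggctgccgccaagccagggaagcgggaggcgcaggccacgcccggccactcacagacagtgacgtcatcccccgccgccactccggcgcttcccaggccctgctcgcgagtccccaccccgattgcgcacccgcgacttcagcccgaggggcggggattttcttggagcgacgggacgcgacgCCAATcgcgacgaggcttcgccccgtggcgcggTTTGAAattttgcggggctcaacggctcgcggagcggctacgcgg
A CHR was found in 25 of the 35 matched promoters of tested G2/M members (71.4%) and in 15.6% of all 27305 promoters of the same length. A CCAAT box was found in 27 of the 35 (77.1%) and in 34.5% of all promoters. A match is a description of these letters and not a bound site.

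Genes of the G1/S transition and DNA replication differed in the same direction. In that list 1 of the 46 tested members was higher in siSIRT6 and 40 were lower, with a median of -0.60, and the counts without siKDM5C replicate 2 were 1 higher and 40 lower. The median against the control was -0.37 for siSIRT6 and 0.21 for siKDM5C, values of opposite sign. FEN1, the flap endonuclease of lagging-strand synthesis, stood at 13.8, 13.6 and 14.4 FPKM in siSIRT6 and 33, 31.6 and 36.1 in siKDM5C, with 25.3, 24.1 and 26.4 in the controls. DTL, the substrate adaptor of the ubiquitin ligase that clears CDT1, stood at 5.62, 5.46 and 5.51 FPKM in siSIRT6 and 15.2, 16.3 and 13 in siKDM5C, with 6.76, 6.61 and 6.14 in the controls. For FEN1 the control lay between the knockdowns, and for DTL the siKDM5C libraries lay above the other 6. The differences were -1.21 ± 0.066 (adjusted p = 0.000107) and -1.27 ± 0.085 (adjusted p = 0.000202). ORC1, a subunit of the origin recognition complex, and RRM2, the regulated subunit of ribonucleotide reductase, differed by -1.01 ± 0.073 (adjusted p = 0.000257) and -1.01 ± 0.076 (adjusted p = 0.00029). The replicative helicase subunits MCM2 to MCM7 were all lower in siSIRT6, from -0.91 for MCM7 to -0.30 for MCM3. CCNE1, cyclin E1, was the 1 member higher in siSIRT6, at 10.6, 10.5 and 10.7 FPKM in siSIRT6 and 6.96, 6.74 and 6.62 in siKDM5C, a difference of 0.58 ± 0.051 (adjusted p = 0.000485), while CCNE2 was lower at -0.47. RFC1 (-0.22), RFC3 (0.12), RFC5 (0.028) and UHRF1 (0.025) did not pass the test. The promoter of DTL at chr1:212035498-212035772, plus strand, is shown as an example of an E2F site (searched as TTTGGCGC or TTTCCCGC on both strands) beside a CCAAT box, both in capitals.
DTL: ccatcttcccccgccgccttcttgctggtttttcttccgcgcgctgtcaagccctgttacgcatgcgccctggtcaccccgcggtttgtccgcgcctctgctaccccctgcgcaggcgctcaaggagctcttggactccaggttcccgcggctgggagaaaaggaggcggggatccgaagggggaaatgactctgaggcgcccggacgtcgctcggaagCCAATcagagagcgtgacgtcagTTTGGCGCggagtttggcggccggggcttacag
An E2F site of these letters was found in 17 of 39 matched G1/S promoters (43.6%) and in 2.16% of all promoters. FEN1 and ORC1 had none in this window.

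Repair and cell cycle regulators shared part of this pattern. Of the genes of double-strand break repair, 2 of the 31 tested members were higher in siSIRT6 and 16 were lower, with a median of -0.36 and, against the control, -0.38 for siSIRT6 and -0.037 for siKDM5C. FANCG, of the Fanconi anaemia core complex, stood at 6.12, 5.92 and 5.89 FPKM in siSIRT6 and 12.8, 12.3 and 13.6 in siKDM5C, a difference of -0.99 ± 0.058 (adjusted p = 0.000134). PARP1, the main poly(ADP-ribose) polymerase, stood at 5.31, 5.18 and 5.17 FPKM in siSIRT6 and 9.01, 8.46 and 8.77 in siKDM5C with 10.6, 10.6 and 11.5 in the controls, and differed by -0.65 ± 0.053 (adjusted p = 0.000373). FANCI (-0.83), FANCD2 (-0.77) and BRCA1 (-0.51) were lower too. NBN, the NBS1 subunit of the MRE11 complex, was higher at 8.94, 9.5 and 9.72 FPKM in siSIRT6 and 4.65, 6.12 and 4.48 in siKDM5C, a difference of 0.78 ± 0.11 (adjusted p = 0.00236), and its controls held 13.7, 13.7 and 11.8. TP53BP1 was the other higher member, by 0.29 ± 0.05 (adjusted p = 0.00539). Among the D-type cyclins, their kinases and inhibitors 2 of the 13 tested members were higher in siSIRT6 and 5 were lower. CCND1, cyclin D1, stood at 48.9, 48.5 and 48.8 FPKM in siSIRT6 and 33.5, 36 and 35 in siKDM5C against 214, 213 and 187 in the controls. Both knockdowns were thus far below the control, with a smaller difference between them of 0.47 ± 0.052 (adjusted p = 0.00105). CDK6 was lower in siSIRT6 at -0.99 ± 0.13 (adjusted p = 0.00183), CDK2 at -0.56 ± 0.061 (adjusted p = 0.000987), and the pocket protein gene RBL2 was higher by 0.34 ± 0.056 (adjusted p = 0.00456).

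Of the ribosomal protein mRNAs tested 41.3% were called lower in siSIRT6, against 19.8% of all genes tested. The other 44 of the 75 did not pass the test, and the count depended strongly on single libraries. Of the cytosolic ribosomal protein genes 0 of the 75 tested members were higher in siSIRT6 and 31 were lower, with a median of -0.29 and a median against the control of -0.27 for siSIRT6 and -0.0012 for siKDM5C. At an unadjusted limma p below 0.05, 1 was higher and 38 were lower. Without siKDM5C replicate 2 the adjusted count was 0 higher and 57 lower, and without siSIRT6 replicate 1, 2 or 3 the count of lower members was 9, 11 or 15. The 9 of 75 without siSIRT6 replicate 1 stood beside 2082 of all 15519 genes tested. RPS6, a protein of the small subunit, stood at 134, 137 and 136 FPKM in siSIRT6 and 180, 180 and 182 in siKDM5C, with 155, 149 and 151 in the controls. RPL12, of the large subunit, stood at 113, 116 and 116 FPKM in siSIRT6 and 164, 153 and 187 in siKDM5C, with 137, 134 and 133 in the controls. In both genes siSIRT6 and siKDM5C did not overlap, and the differences were -0.41 ± 0.05 (adjusted p = 0.00147) and -0.54 ± 0.081 (adjusted p = 0.00324). Ribosomal protein genes have many processed copies in the genome, and reads may be shared with them. Of MYC and the genes of ribosome biogenesis 2 of the 40 tested members were higher in siSIRT6 and 14 were lower. DKC1, the pseudouridine synthase dyskerin, stood at 18.4, 18.8 and 17.9 FPKM in siSIRT6 and 43.1, 38.3 and 39.1 in siKDM5C, with 38.7, 38 and 40.3 in the controls, and differed by -1.08 ± 0.064 (adjusted p = 0.000138). The transcription factor gene MYC stood at 18.9, 20.5 and 19.6 FPKM in siSIRT6 and 32.5, 33.1 and 34.5 in siKDM5C, with 19.1, 17.2 and 19.6 in the controls, so siKDM5C was the group away from the control, and the difference was -0.73 ± 0.057 (adjusted p = 0.000312).

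Replication-dependent histone genes were higher in siSIRT6. Of 52 such genes with deposited values, 18 met the expression minimum, and 13 of the 18 tested members were higher in siSIRT6 and 2 were lower, with a median of 0.50. Without siKDM5C replicate 2 the counts were 12 higher and 2 lower, and the median against the control was 0.55 for siSIRT6 and 0.061 for siKDM5C. H2BC12, which encodes a histone H2B, stood at 289, 289 and 295 FPKM in siSIRT6 and 147, 137 and 161 in siKDM5C, with 119, 103 and 111 in the controls. H2BC5, another H2B gene, stood at 38.7, 35.9 and 39.8 FPKM in siSIRT6 and 16.2, 15.2 and 16 in siKDM5C, with 8.96, 8.37 and 7.32 in the controls. For both genes the order of the groups from low to high was control, siKDM5C, siSIRT6 with no overlap between the knockdowns, and the differences were 0.97 ± 0.072 (adjusted p = 0.000276) and 1.22 ± 0.061 (adjusted p = 9.09e-05). The linker histone gene H1-2 differed by 1.08 ± 0.058 (adjusted p = 0.000102) and the H4 gene H4C9 by 1.07 ± 0.058 (adjusted p = 0.000107). The 2 members lower in siSIRT6 were H2BC21 (-0.46 ± 0.081, adjusted p = 0.00601) and H2BC8 (-0.63 ± 0.12, adjusted p = 0.0086), both at 3.38 FPKM or less. Most of these mRNAs end in a stem-loop in place of a poly(A) tail, the libraries were made with a kit for mRNA, and histone genes are near-identical copies whose reads counting can split.

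**Figure D5:**
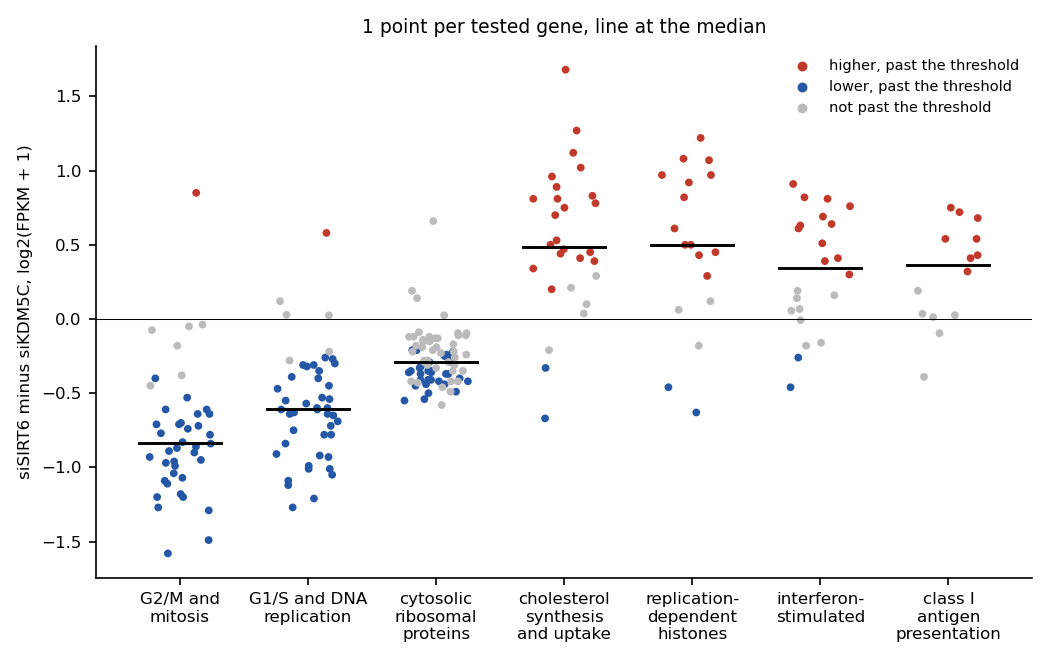
Difference between the knockdowns (siSIRT6 minus siKDM5C, log2(FPKM + 1)) for each tested member of 7 gene lists, with a black line at the list median, coloured by whether the gene was called higher, lower or neither. In the G2/M list 1 member, CDC25B at 0.85, lies high above 0, and in the cholesterol list SCAP, at -0.33, was called lower.

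Genes of cholesterol synthesis were higher in siSIRT6. Of the list of cholesterol synthesis and uptake 21 of the 28 tested members were higher in siSIRT6 and 2 were lower, with a median of 0.49. The counts without siKDM5C replicate 2 were 22 higher and 2 lower, and the median against the control was 0.24 for siSIRT6 and -0.31 for siKDM5C, so the 2 knockdowns lay on opposite sides of it. HMGCS1, the synthase of HMG-CoA, stood at 21.3, 22.3 and 21.9 FPKM in siSIRT6 and 8.7, 9.24 and 7.52 in siKDM5C, with 14.1, 14 and 12.9 in the controls. MSMO1, a sterol demethylase, stood at 67.8, 69.9 and 68.4 FPKM in siSIRT6 and 19.6, 25 and 18.2 in siKDM5C, with 52.8, 55.7 and 44.1 in the controls. The siSIRT6 libraries were the highest of the 9 for both genes, and the differences were 1.27 ± 0.079 (adjusted p = 0.000169) and 1.68 ± 0.11 (adjusted p = 0.000207). CYP51A1, lanosterol demethylase, differed by 0.96 ± 0.065 (adjusted p = 0.000218). SQLE (0.83), IDI1 (0.75) and ACAT2 (1.02) were higher too. SCAP, the escort of the sterol-sensing transcription factors, had the opposite direction and was lower at -0.33 ± 0.066 (adjusted p = 0.00998). The genes of those factors did not pass the test, at -0.21 for SREBF1 and 0.10 for SREBF2.

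Promoters of HMGCS1 (chr5:43313388-43313662, minus strand) and MSMO1 (chr4:165327419-165327693, plus strand) are shown from the same RefSeq table. With CYP51A1, these genes had the smallest adjusted p of the list. Capitals mark CCAAT boxes on either strand, 2 in HMGCS1 and 4 in MSMO1. The promoter of CYP51A1 was searched too and held neither a CCAAT box nor the sterol regulatory element given below.
HMGCS1: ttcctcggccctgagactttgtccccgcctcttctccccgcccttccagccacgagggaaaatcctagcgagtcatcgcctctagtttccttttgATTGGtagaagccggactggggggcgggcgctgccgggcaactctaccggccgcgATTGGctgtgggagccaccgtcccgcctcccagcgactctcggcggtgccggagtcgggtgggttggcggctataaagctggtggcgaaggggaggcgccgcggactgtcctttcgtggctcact
MSMO1: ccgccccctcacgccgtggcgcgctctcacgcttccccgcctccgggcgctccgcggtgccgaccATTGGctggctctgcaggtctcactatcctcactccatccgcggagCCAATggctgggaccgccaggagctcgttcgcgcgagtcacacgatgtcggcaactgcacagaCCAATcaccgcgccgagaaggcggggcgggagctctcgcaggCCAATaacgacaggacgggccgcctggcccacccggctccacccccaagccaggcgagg
A CCAAT box was found in 15 of the 22 matched promoters of tested members (68.2%) against 34.5% of all promoters. The sterol regulatory element searched (TCACNCCAC, both strands) was found in 1 of the 22 (4.55%) and in 1% of all promoters. Of the 16 matched promoters of members called higher in siSIRT6, 13 held a CCAAT box (81.2%) and 0 the sterol regulatory element.

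Of the genes of fatty acid synthesis and desaturation 8 of the 18 tested members were higher in siSIRT6 and 0 were lower (8 and 1 at an unadjusted limma p below 0.05), with a median of 0.17 and medians against the control of 0.14 for siSIRT6 and -0.30 for siKDM5C. SCD, stearoyl-CoA desaturase, stood at 725, 709 and 727 FPKM in siSIRT6 and 296, 320 and 295 in siKDM5C, with 559, 550 and 508 in the controls. Its siSIRT6 libraries were the highest and its siKDM5C libraries the lowest, with a difference of 1.24 ± 0.062 (adjusted p = 8.90e-05). The polyunsaturated fatty acid desaturases FADS2 and FADS1 differed by 0.77 ± 0.058 (adjusted p = 0.000292) and 0.61 ± 0.048 (adjusted p = 0.000309). ACSS2, which makes acetyl-CoA from acetate, differed by 0.48 ± 0.06 (adjusted p = 0.00164), and FASN, the fatty acid synthase, by 0.55.

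Inflammatory genes included many with higher levels in siSIRT6 than in siKDM5C. Of the NF-kB targets and components 13 of the 30 tested members were higher in siSIRT6 and 3 were lower, with a median of 0.18, and the median against the control was -1.02 for siSIRT6 and -1.21 for siKDM5C. SOD2, the mitochondrial superoxide dismutase, stood at 26.8, 27.8 and 27.7 FPKM in siSIRT6 and 8.22, 8.59 and 7.93 in siKDM5C, with 41.7, 42.4 and 41.7 in the controls. TNFAIP2, a gene induced by tumour necrosis factor, stood at 114, 107 and 107 FPKM in siSIRT6 and 41.8, 45.1 and 49.9 in siKDM5C, with 276, 280 and 267 in the controls. CSF1, the macrophage growth factor, stood at 27.2, 27.7 and 28.3 FPKM in siSIRT6 and 12.4, 11.3 and 12.7 in siKDM5C, with 63.1, 61.7 and 63.7 in the controls. From high to low, these 3 genes held the order control, siSIRT6, siKDM5C with no overlap, and the knockdowns differed by 1.62 ± 0.054 (adjusted p = 4.98e-05), 1.25 ± 0.077 (adjusted p = 0.000168) and 1.13 ± 0.06 (adjusted p = 0.000102). CXCL1, a neutrophil chemokine, differed in its order, at 38.9, 41.9 and 39.6 FPKM in siSIRT6 and 15.1, 16.4 and 17.6 in siKDM5C with 20.5, 19.8 and 16.6 in the controls, and the difference was 1.25 ± 0.071 (adjusted p = 0.000126). The members lower in siSIRT6 were the cytokine LIF (-0.94 ± 0.061, adjusted p = 0.000191) and 2 subunits of the factor itself. NFKB1 differed by -0.37 ± 0.055 (adjusted p = 0.003) and RELA by -0.20 ± 0.058 (adjusted p = 0.0376), and the RELA call was lost in several alternative settings, with a highest adjusted p of 0.15. CXCL8 (-0.12), NFKBIA (0.03) and TNFAIP3 (0.065) did not pass the test.

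Of the interferon-stimulated genes 12 of the 22 tested members were higher in siSIRT6 and 2 were lower, with a median of 0.34 and medians against the control of -0.28 for siSIRT6 and -0.46 for siKDM5C. Another 13 listed genes with deposited values missed the expression minimum. IFIH1, the RNA sensor MDA5, stood at 5.94, 5.89 and 6.12 FPKM in siSIRT6 and 2.46, 3.01 and 2.69 in siKDM5C, with 10.7, 10.7 and 8.83 in the controls. PARP14, a mono-ADP-ribosyltransferase, stood at 10.3, 10.2 and 9.98 FPKM in siSIRT6 and 4.98, 5.65 and 5.31 in siKDM5C, with 15.6, 15.4 and 13.7 in the controls. Both genes held the order control, siSIRT6, siKDM5C from high to low, without overlap, and the differences were 0.91 ± 0.072 (adjusted p = 0.000325) and 0.82 ± 0.061 (adjusted p = 0.000276). IFIT1, which binds foreign RNA caps, stood at 8.39, 8.44 and 8.46 FPKM in siSIRT6 and 4.63, 4.84 and 4.27 in siKDM5C with 6.92, 7.03 and 7.32 in the controls, and differed by 0.76 ± 0.06 (adjusted p = 0.000332). ISG15 (0.067) and IRF7 (-0.18) did not pass the test. ISG20 (-0.46 ± 0.064, adjusted p = 0.00237) and MX2 (-0.26 ± 0.067, adjusted p = 0.0238) were lower in siSIRT6. The MX2 call was lost without the expression minimum and in other settings, with a highest adjusted p of 0.0901. In class I antigen presentation 8 of the 14 tested members were higher in siSIRT6 and 0 were lower, with a median of 0.36 and the same counts of 8 and 0 at an unadjusted p below 0.05. B2M, the light chain of class I molecules, stood at 18, 17.7 and 18.4 FPKM in siSIRT6 and 11.5, 13.4 and 11.6 in siKDM5C, with 27, 28.2 and 25.3 in the controls. The peptide transporter gene TAP1 stood at 18.9, 17.2 and 17.9 FPKM in siSIRT6 and 9.76, 9.64 and 11.7 in siKDM5C, with 20.7, 21 and 20.2 in the controls. The siKDM5C libraries were the lowest in both genes, and the differences were 0.54 ± 0.071 (adjusted p = 0.00208) and 0.75 ± 0.084 (adjusted p = 0.00114).

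Immediate early genes were mostly lower in siSIRT6 than in siKDM5C. Of the AP-1 and immediate early genes 2 of the 16 tested members were higher in siSIRT6 and 10 were lower, with a median of -0.37. EGR1, a zinc finger factor induced by growth signals, stood at 1.18, 1.4 and 1.33 FPKM in siSIRT6 and 4.76, 3.52 and 4.15 in siKDM5C, with 4.9, 4.41 and 5.57 in the controls. JUND, an AP-1 subunit, stood at 22.4, 22.4 and 21.9 FPKM in siSIRT6 and 33, 34.9 and 37.1 in siKDM5C, with 21.2, 19.4 and 20.7 in the controls. EGR1 was low in siSIRT6 and JUND high in siKDM5C relative to the controls, and the differences were -1.15 ± 0.10 (adjusted p = 0.000471) and -0.63 ± 0.06 (adjusted p = 0.000647). IER5 (0.49 ± 0.10, adjusted p = 0.01) and KLF10 (0.35 ± 0.073, adjusted p = 0.0114) were the members higher in siSIRT6, and KLF10 lost its call without siSIRT6 replicate 2 or 3. Of the EGF receptor family and ligands 5 of the 12 tested members were higher in siSIRT6 and 4 were lower. Without siSIRT6 replicate 1, 2 or 3 the count of higher members was 2, 3 or 2. The ligand gene HBEGF stood at 5.47, 6.17 and 6.11 FPKM in siSIRT6 and 14.3, 14.7 and 14 in siKDM5C, with 10.8, 10.6 and 10.6 in the controls. AREG, amphiregulin, stood at 14.6, 16 and 16.1 FPKM in siSIRT6 and 29.6, 26.7 and 27.2 in siKDM5C, with 4.18, 4.5 and 4.37 in the controls. Both ligands were lower in siSIRT6 than in siKDM5C, at -1.15 ± 0.062 (adjusted p = 0.000107) and -0.80 ± 0.067 (adjusted p = 0.000385), although AREG was above the control in every knockdown library. The sheddase ADAM17 was lower at -0.58 ± 0.066 (adjusted p = 0.00118), the feedback inhibitor ERRFI1 was higher by 0.42 ± 0.069 (adjusted p = 0.00456), and EGFR itself did not pass the test (0.16). Of the feedback genes of MAP kinase signalling 6 of the 18 tested members were higher in siSIRT6 and 5 were lower, with 3 lower without siSIRT6 replicate 2 or 3. SPRY2, a Sprouty inhibitor, stood at 8.83, 9.54 and 9.67 FPKM in siSIRT6 and 23.6, 22.9 and 23.1 in siKDM5C, with 11.1, 11.3 and 11.2 in the controls. The phosphatase gene DUSP5 stood at 68, 68.2 and 66.6 FPKM in siSIRT6 and 123, 117 and 127 in siKDM5C, with 79.6, 73.1 and 75 in the controls. For both the siKDM5C libraries were the high ones, and the differences were -1.23 ± 0.056 (adjusted p = 7.10e-05) and -0.85 ± 0.054 (adjusted p = 0.000191). SPRED1 was higher in siSIRT6 by 0.84 ± 0.11 (adjusted p = 0.00209).

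Matrix and adhesion genes included large differences in both directions. Of the collagens, laminins and other matrix genes 14 of the 28 tested members were higher in siSIRT6 and 4 were lower, with a median of 0.18 and medians against the control of 0.48 for siSIRT6 and 0.36 for siKDM5C. Without siSIRT6 replicate 1 or 3 the count of higher members was 9 in each case, and without siSIRT6 replicate 3 that of lower members was 2. COL5A2, a chain of type V collagen, stood at 104, 102 and 105 FPKM in siSIRT6 and 32.4, 35.5 and 35.7 in siKDM5C, with 26.1, 24.5 and 21.4 in the controls. COL1A1, a chain of type I collagen, stood at 42.5, 40.7 and 41 FPKM in siSIRT6 and 15.1, 14.9 and 16.9 in siKDM5C, with 16, 15.5 and 16.6 in the controls. THBS1, thrombospondin-1, stood at 16.7, 16.9 and 17.1 FPKM in siSIRT6 and 8.97, 9.5 and 10.1 in siKDM5C, with 2.63, 2.47 and 2.29 in the controls. The siSIRT6 libraries were the highest for all 3 genes, and the siKDM5C libraries overlapped the control range only for COL1A1. Their differences were 1.56 ± 0.059 (adjusted p = 5.38e-05), 1.35 ± 0.065 (adjusted p = 8.30e-05) and 0.77 ± 0.06 (adjusted p = 0.000315). The laminin chain gene LAMB3 was lower in siSIRT6 (-0.90). Fibroblast marker genes other than COL1A1 and COL3A1 were under 1 FPKM in all 6 libraries, the marker list summed to 42.6 to 44.8 FPKM in siSIRT6 and to no more than 18.1 in siKDM5C, and the part of other cells in the collagen result was not tested. Of the integrins 6 of the 12 tested members were higher in siSIRT6 and 1 was lower, with a median of 0.28. ITGB4, the beta chain of the hemidesmosome integrin, stood at 24.6, 23.2 and 23.2 FPKM in siSIRT6 and 9.6, 9.3 and 10.4 in siKDM5C, with 13.8, 13.1 and 13.2 in the controls, and differed by 1.20 ± 0.061 (adjusted p = 9.16e-05). ITGA2 and ITGAV were higher by 0.60 ± 0.11 (adjusted p = 0.00681) and 0.71 ± 0.13 (adjusted p = 0.00701), and ITGA10, the 1 lower member, stood at 0.814, 0.68 and 0.72 FPKM in siSIRT6 and 1.8, 1.42 and 1.74 in siKDM5C. It met the expression minimum through its siKDM5C libraries alone, so its difference of -0.61 is given as a description.

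Metalloproteinases and their inhibitors split, with 5 of 12 tested members higher and 4 lower in siSIRT6. MMP2, a gelatinase, stood at 56.4, 54.9 and 57.1 FPKM in siSIRT6 and 31.2, 29.5 and 33 in siKDM5C, with 17.4, 17.3 and 18.6 in the controls. TIMP2, the inhibitor that takes part in MMP2 activation, stood at 49.3, 47.8 and 47.9 FPKM in siSIRT6 and 23.1, 22.7 and 22.2 in siKDM5C, with 24.5, 25.3 and 25.4 in the controls. Both were higher in siSIRT6, by 0.83 ± 0.06 (adjusted p = 0.000258) and 1.06 ± 0.049 (adjusted p = 7.70e-05), whereas MMP14, given above, and ADAM19 (-0.91 ± 0.052, adjusted p = 0.000128) were lower. Of the TGF-beta genes 10 of the 19 tested members were higher in siSIRT6 and 5 were lower, with 3 lower without siSIRT6 replicate 2 or 3. The ligand gene TGFB2 stood at 36.2, 36 and 34.6 FPKM in siSIRT6 and 13.1, 15.9 and 11.9 in siKDM5C, with 18.4, 18.3 and 15.1 in the controls. TGFBR2, a receptor, stood at 23.1, 22.3 and 22.3 FPKM in siSIRT6 and 38.6, 42.4 and 39.6 in siKDM5C, with 28.6, 28.4 and 25.6 in the controls. The ligand was thus higher and the receptor lower in siSIRT6, by 1.33 ± 0.10 (adjusted p = 0.00029) and -0.81 ± 0.058 (adjusted p = 0.000253). The inhibitory gene SMAD7 was higher by 0.91 ± 0.095 (adjusted p = 0.000822), and LTBP2, of the latent TGF-beta binding protein family, was lower at -0.55 ± 0.061 (adjusted p = 0.00111). Of the YAP and TEAD genes 10 of the 25 tested members were higher in siSIRT6 and 5 were lower, a count of lower members that was 2, 3 or 3 without siSIRT6 replicate 1, 2 or 3. WWTR1, the coactivator TAZ, stood at 43.1, 42.5 and 45.1 FPKM in siSIRT6 and 26.4, 30.3 and 26.6 in siKDM5C, with 33.3, 33.1 and 30.1 in the controls, and differed by 0.64 ± 0.07 (adjusted p = 0.00105). PTPN14, an inhibitor of YAP, was higher by 0.59 ± 0.058 (adjusted p = 0.000705).

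Of 10 tested genes of epithelial-mesenchymal transition, 3 were higher and 1 was lower, against 5 higher and 1 lower without siKDM5C replicate 2. Leaving out any other library gave 2 higher. The count of lower members was 0 without siSIRT6 replicate 1 or 2 or without siKDM5C replicate 1 or 3. CDH2, N-cadherin, stood at 4.8, 4.42 and 4.64 FPKM in siSIRT6 and 1.28, 1.64 and 1.21 in siKDM5C, with 2.74, 2.35 and 2.43 in the controls, and differed by 1.25 ± 0.086 (adjusted p = 0.000225). SPARC was higher by 0.58 ± 0.063 (adjusted p = 0.00102). FSTL1, the other higher member, stood at 1.17, 1.28 and 1.32 FPKM in siSIRT6 and 0.909, 0.99 and 0.756 in siKDM5C. It met the expression minimum through its siSIRT6 libraries alone, so its difference of 0.26 is given as a description. The FSTL1 call was also lost in several alternative settings, with a highest adjusted p of 0.126. S100A4 was lower at -0.60 ± 0.17 (adjusted p = 0.0328). Its call was lost without any 1 of the siSIRT6 libraries, without siKDM5C replicate 1 or 3 and without the expression minimum. The highest adjusted p of S100A4 over the alternatives was 0.095, and siKDM5C replicate 2, at 115 FPKM, lay near the siSIRT6 range of 98.7 to 103. Of the actomyosin genes 6 of the 30 tested members were higher in siSIRT6 and 4 were lower, against 9 higher and 8 lower without siKDM5C replicate 2, and 2 lower without siSIRT6 replicate 2 or 3. Tropomyosins differed in direction. TPM1 stood at 25.1, 25.1 and 24.8 FPKM in siSIRT6 and 13.3, 13.9 and 14.3 in siKDM5C, with 9.43, 10.1 and 9.82 in the controls, and TPM4 at 33.5, 33 and 33.2 FPKM in siSIRT6 and 51.1, 55.1 and 48.4 in siKDM5C, with 7.84, 8.19 and 7.97 in the controls. Both genes were above the control in all knockdown libraries, yet TPM1 was higher (0.81 ± 0.053, adjusted p = 0.000196) and TPM4 lower (-0.62 ± 0.063, adjusted p = 0.000768) in siSIRT6.

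Of the keratins among the epithelial markers, KRT8, KRT18 and KRT19 were higher in siSIRT6, and KRT7 did not pass the test. KRT8 stood at 538, 555 and 575 FPKM in siSIRT6 and 240, 245 and 291 in siKDM5C, with 512, 488 and 485 in the controls. Its partner KRT18 stood at 567, 581 and 619 FPKM in siSIRT6 and 321, 306 and 389 in siKDM5C, with 473, 457 and 448 in the controls. KRT19 stood at 288, 304 and 312 FPKM in siSIRT6 and 150, 138 and 169 in siKDM5C, with 150, 143 and 150 in the controls. The knockdowns did not overlap in any of them, siKDM5C overlapped the control for KRT19, and the differences were 1.11 ± 0.089 (adjusted p = 0.000338), 0.80 ± 0.10 (adjusted p = 0.0017) and 0.99 ± 0.086 (adjusted p = 0.000461). CLDN1, a claudin of tight junctions, stood at 67.9, 66.9 and 68.4 FPKM in siSIRT6 and 22.4, 24.7 and 21.4 in siKDM5C, with 36.2, 36.5 and 32.2 in the controls, and differed by 1.53 ± 0.066 (adjusted p = 5.94e-05). KRT80 was higher by 1.11 ± 0.069 (adjusted p = 0.000178). Of the whole list of tight junctions, desmosomes and keratins 10 of the 28 tested members were higher in siSIRT6 and 7 were lower, a count of lower members that was 4 without siSIRT6 replicate 1 or 2. The lower members included EPCAM (-0.62 ± 0.13, adjusted p = 0.0106), an epithelial adhesion molecule at 3.52 FPKM or less, and KRT15 (-0.62 ± 0.10, adjusted p = 0.00485). CDH1, E-cadherin, was under 1 FPKM in all 6 libraries and was not tested.

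Genes of haemostasis other than THBD also separated the knockdowns, and of this list 7 of the 15 tested members were higher in siSIRT6 and 4 were lower, with 4 higher without siSIRT6 replicate 1. F2RL1, the protease-activated receptor PAR2, stood at 58.2, 56.8 and 58.6 FPKM in siSIRT6 and 142, 155 and 144 in siKDM5C, with 100, 98.6 and 88.9 in the controls. TFPI, the inhibitor of tissue factor, stood at 5.12, 5.38 and 4.98 FPKM in siSIRT6 and 14.7, 17.4 and 12.8 in siKDM5C, with 8.41, 8.38 and 7.2 in the controls. In both the control lay between a lower siSIRT6 and a higher siKDM5C, and the differences were -1.33 ± 0.057 (adjusted p = 5.94e-05) and -1.36 ± 0.11 (adjusted p = 0.000314). SERPINE2, a thrombin inhibitor, was higher in siSIRT6 by 0.75 ± 0.058 (adjusted p = 0.000309). Endothelial markers stayed at 0.882 FPKM or less in the 6 libraries. They summed to 0.805 to 0.923 FPKM in siSIRT6 and 0.631 to 0.761 in siKDM5C, and the part of other cells in the THBD result was not tested.

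The lists of glycolysis, NRF2 targets, amino acid supply, endoplasmic reticulum stress, heat shock and the respiratory chain had medians between -0.14 and 0.14. Of the glycolysis and hypoxia genes 4 of the 35 tested members were higher in siSIRT6 and 13 were lower. Without siSIRT6 replicate 1, 2 or 3 the count of lower members was 7, 5 or 5, and without siSIRT6 replicate 1 or 2 that of higher members was 2 in each case. STC1, the hormone stanniocalcin-1, stood at 9.48, 10.1 and 10.4 FPKM in siSIRT6 and 26.1, 33.6 and 29.4 in siKDM5C, with 3.76, 3.7 and 3.49 in the controls. NDRG1, a hypoxia-induced gene, stood at 3.6, 3.62 and 3.67 FPKM in siSIRT6 and 11.4, 10.8 and 11.3 in siKDM5C, with 4.52, 4.64 and 5.01 in the controls. The siKDM5C libraries were the highest for both, and the differences were -1.47 ± 0.096 (adjusted p = 0.000195) and -1.39 ± 0.053 (adjusted p = 5.38e-05). HK2, hexokinase 2, was lower at -0.51 ± 0.054 (adjusted p = 0.000897). Of the NRF2 targets 7 of the 21 tested members were higher in siSIRT6 and 4 were lower, with 2 lower without siSIRT6 replicate 1. PGD (0.52 ± 0.058, adjusted p = 0.0011) and TKT (0.47 ± 0.071, adjusted p = 0.00312), of the pentose phosphate pathway, were higher in siSIRT6. Of the ATF4 and amino acid genes 3 of the 27 tested members were higher in siSIRT6 and 10 were lower. The count of lower members was 6, 5 or 6 without siSIRT6 replicate 1, 2 or 3 and 6 without siKDM5C replicate 3, and that of higher members was 0 without siSIRT6 replicate 1, siSIRT6 replicate 3 or siKDM5C replicate 1 and 1 without siSIRT6 replicate 2. SHMT2, the mitochondrial serine hydroxymethyltransferase, stood at 22.4, 22.2 and 23.1 FPKM in siSIRT6 and 45.8, 38.8 and 44.8 in siKDM5C, with 37.8, 36.6 and 41.8 in the controls, and differed by -0.90 ± 0.074 (adjusted p = 0.000376). ASNS (-0.42 ± 0.049, adjusted p = 0.00137) and PHGDH (-0.51 ± 0.071, adjusted p = 0.0024) were lower, and MTHFD2 (0.29), PSPH (0.31) and WARS1 (0.18) were higher, each of the last losing its call in some alternative settings.

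Of the chaperones and unfolded protein response genes of the endoplasmic reticulum 2 of the 22 tested members were higher in siSIRT6 and 8 were lower, with HSP90B1 lower at -0.46 ± 0.069 (adjusted p = 0.00338) and XBP1 at -0.39 ± 0.061 (adjusted p = 0.00378). Without siSIRT6 replicate 1, 2 or 3 the count of lower members was 3, 2 or 2. Among 13 heat shock genes 1 was higher and 4 were lower, DNAJA1 at -0.57 ± 0.06 (adjusted p = 0.000894). Of the nuclear genes of the respiratory chain 2 of the 45 tested members were higher in siSIRT6 and 8 were lower, a count that was 2 higher and 15 lower without siKDM5C replicate 2. Of these genes 0 were lower without any 1 of the siSIRT6 libraries, and 2 or 4 were lower without siKDM5C replicate 1 or 3. NDUFS1, the largest subunit of complex I, was higher at 5.69, 5.07 and 6.21 FPKM in siSIRT6 and 3.42, 3.44 and 3.23 in siKDM5C, a difference of 0.61 ± 0.078 (adjusted p = 0.00182). Of 13 mRNAs of mitochondrial DNA, 2 were called higher, MT-CO3 (0.32 ± 0.08, adjusted p = 0.0214) and MT-ND2 (0.36 ± 0.094, adjusted p = 0.0251). Neither held without any 1 of the siSIRT6 libraries, where 0 of the 13 were higher, or under quantile normalization, with highest adjusted p of 0.512 and 0.182 over the alternatives.

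Among p53 targets 7 of the 26 tested members were higher in siSIRT6 and 6 were lower. PERP, a desmosomal p53 target, stood at 154, 157 and 158 FPKM in siSIRT6 and 63.4, 88.2 and 68.2 in siKDM5C, with 32.8, 32.2 and 26.4 in the controls. Both knockdowns lay above the control, siSIRT6 higher by 1.10 ± 0.12 (adjusted p = 0.00105). ZMAT3, an RNA-binding protein, stood at 6.34, 5.93 and 5.99 FPKM in siSIRT6 and 2.11, 3.03 and 1.88 in siKDM5C with 6.08, 6.43 and 5.42 in the controls, so siKDM5C was the low group, and the difference was 1.10 ± 0.13 (adjusted p = 0.00124). POLH, the translesion polymerase eta, was lower at -0.67 ± 0.063 (adjusted p = 0.000625). Of the BCL2 family and apoptosis genes 5 of the 24 tested members were higher in siSIRT6 and 5 were lower, and without siKDM5C replicate 2 the counts were 3 higher and 8 lower. Without siSIRT6 replicate 1 or 2 they were 3 higher and 3 lower, and without siKDM5C replicate 1 they were 3 higher and 4 lower. BCL2A1, an anti-apoptotic member, stood at 8.17, 10.5 and 11 FPKM in siSIRT6 and 25.6, 23.2 and 22.9 in siKDM5C, with 25.2, 23.7 and 26.2 in the controls. APAF1, the core of the apoptosome, stood at 2.14, 1.88 and 1.92 FPKM in siSIRT6 and 4.79, 5.02 and 4.14 in siKDM5C, with 5.24, 5.35 and 4.72 in the controls. The siSIRT6 libraries were the low ones for both, with differences of -1.20 ± 0.11 (adjusted p = 0.000563) and -0.92 ± 0.082 (adjusted p = 0.000489). The pro-apoptotic BMF was higher by 0.64 ± 0.056 (adjusted p = 0.000448). Of the autophagy and lysosome genes 10 of the 42 tested members were higher in siSIRT6 and 7 were lower. ATG7, an enzyme of autophagosome formation, was higher by 0.49 ± 0.053 (adjusted p = 0.000924) and the receptor gene SQSTM1 by 0.44 ± 0.051 (adjusted p = 0.00123). The lysosomal galactosidase GLA was lower at -0.71 ± 0.055 (adjusted p = 0.000299).

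Neuronal and guidance genes were among those higher in siSIRT6. Of 29 genes of the REST complex and its neuronal targets with deposited values 15 were tested, and 9 of the 15 tested members were higher in siSIRT6 and 2 were lower, with a median of 0.32. SCG2, a secretogranin, stood at 5.72, 6.03 and 5.88 FPKM in siSIRT6 and 2.32, 1.85 and 1.98 in siKDM5C, with 0.682, 1.16 and 0.79 in the controls. L1CAM, a neural adhesion molecule, stood at 27, 27.3 and 27.7 FPKM in siSIRT6 and 13.3, 12 and 13.8 in siKDM5C, with 12.8, 12.7 and 13.3 in the controls. SYT11, a synaptotagmin, stood at 3.46, 3.16 and 3.37 FPKM in siSIRT6 and 1.31, 1.39 and 1.34 in siKDM5C, with 5.56, 5.11 and 5.05 in the controls. The knockdowns did not overlap for any of the 3 genes, siKDM5C overlapped the control for L1CAM, and siSIRT6 was above the control for SCG2 and L1CAM and below it for SYT11. Their differences were 1.18 ± 0.075 (adjusted p = 0.000187), 1.01 ± 0.066 (adjusted p = 0.000192) and 0.88 ± 0.063 (adjusted p = 0.000248). The 2 lower members were ENO2 (-0.47 ± 0.07, adjusted p = 0.00322) and VGF (-0.24 ± 0.059, adjusted p = 0.0201). VGF lost its call in several alternative settings, with a highest adjusted p of 0.0902. The count of lower members was 1 without any 1 of the siSIRT6 libraries or without siKDM5C replicate 1. Of the semaphorins, ephrins, netrins and Slit-Robo genes 12 of the 31 tested members were higher in siSIRT6 and 4 were lower. The guidance cue SEMA3A stood at 12.5, 12.2 and 12 FPKM in siSIRT6 and 5.4, 6.91 and 5.12 in siKDM5C, with 3.74, 4.12 and 3.49 in the controls, and differed by 0.97 ± 0.10 (adjusted p = 0.000871). EPHB2, an ephrin receptor, was higher by 0.76 ± 0.052 (adjusted p = 0.000218), SLIT3 by 0.76 ± 0.072 (adjusted p = 0.000609), and ROBO3 was lower at -0.61 ± 0.064 (adjusted p = 0.000894). Of 13 tested genes of pancreatic lineage and subtype 4 were higher and 3 were lower, among them ELF3 (0.96 ± 0.063, adjusted p = 0.000195), an epithelial transcription factor, and FOXA2 (-0.36 ± 0.062, adjusted p = 0.00527), a factor of endoderm.

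In the other chromatin and oncofetal lists the share called in either direction was set beside the 37.1% of all genes tested. It was 36.8% for the COMPASS genes, 25% for Polycomb repressive complex 2 and 40% for the oncofetal genes. Of the COMPASS genes, which encode the methyltransferases of lysine 4 of histone H3 and so oppose KDM5C, 1 of the 19 tested members was higher in siSIRT6 and 6 were lower. ASH2L, a core subunit, stood at 1.52, 1.32 and 1.59 FPKM in siSIRT6 and 4.01, 3.9 and 3.58 in siKDM5C, with 3.86, 4.39 and 4.41 in the controls. All siSIRT6 libraries of ASH2L lay below the other 6, and the difference was -0.97 ± 0.073 (adjusted p = 0.000293). KMT2B was lower at -0.48 ± 0.06 (adjusted p = 0.00168) and WDR5 at -0.41 ± 0.066 (adjusted p = 0.00424), and PAGR1 was higher by 0.35 ± 0.066 (adjusted p = 0.00786). Of 12 tested Polycomb repressive complex 2 genes 0 were higher and 3 were lower, EZH2 at -0.31 ± 0.077 (adjusted p = 0.02), a call that was lost in some alternative settings, and an unadjusted p below 0.05 gave the same counts of 0 and 3. The 3 of 12 is near the 19.8% of all genes called lower, and the count of lower members was 1 without siKDM5C replicate 1 and 2, 1 or 0 without siSIRT6 replicate 1, 2 or 3. Of the genes LIN28B, IGF2BP, HMGA and related oncofetal genes 0 of the 10 tested members were higher in siSIRT6 and 4 were lower, also at an unadjusted p below 0.05. HMGA1, an architectural chromatin protein, stood at 579, 605 and 612 FPKM in siSIRT6 and 1193, 1148 and 1287 in siKDM5C, with 853, 819 and 911 in the controls. The control lay between the knockdowns, which differed by -1.01 ± 0.071 (adjusted p = 0.000233). HMGA2 was lower at -0.70 ± 0.097 (adjusted p = 0.00242), and LIN28B, a repressor of let-7 maturation, at -0.63 ± 0.086 (adjusted p = 0.00225).

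Some abundant genes were at nearly equal levels in the knockdowns. NTN4, a netrin of basement membranes, stood at 76.1, 76.3 and 76.8 FPKM in siSIRT6 and 77, 78.2 and 73.1 in siKDM5C, a difference of 0.0067 ± 0.053 (SE). Its control values of 12.1, 12 and 11.4 lay far below both groups. NCL, nucleolin, stood at 80.5, 83.4 and 82.8 FPKM in siSIRT6 and 84.3, 84.3 and 78.8 in siKDM5C, with 87.3, 83.1 and 85.1 in the controls, and differed by -0.0032. NDUFV2 (0.0071), SLC38A2 (-0.0094), IGF2BP3 (-0.0096) and CYCS (0.011) were the other examples, and their groups overlapped. At the expression minimum, C16orf87 was just inside, with a third-highest value of 1.0002 FPKM, and MSRA (0.9998) and APLF (0.9997) just outside.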

How the data were processed

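The authors deposited 1 table of FPKM values per library for 36753 Ensembl gene identifiers, with no pooling of replicates. Per the submitters' processing notes, Trimmomatic, HISAT2, Cufflinks, HTSeq and the hg38 build were used, and per the labels' protocols total RNA from Trizol went into a stranded mRNA library kit. Versions, annotation and counting strand were not given in the sources used here. The unit was read from the values. Whole reads were recovered for 36752 genes (tolerance 0.01 of a read), with the annotated exon length for 58.93% of genes. For the others a length giving whole reads was searched for. Such a length is easily found for a gene with few reads, so the full recovery is weak support. FPKM values are scaled to each library's own total, so a difference between libraries is one of composition. Gene names were taken from a name table (36659 identifiers matched) and GENCODE release 29 (35564 matched).

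The test was limma (version 3.58.1, R 4.3.3), a linear fit of log2(FPKM + 1) with an empirical Bayes trend, two-sided, with 4 residual degrees of freedom. It covered the 15519 genes that reached 1 FPKM in 3 or more of the 6 libraries, with Benjamini-Hochberg adjustment over all of them and a threshold of 0.05. SE is the moderated standard error of that fit, in which the residual variance of a gene is drawn towards the trend across genes. Each group has 3 libraries. Comparisons with the control are separate fits of the same kind, which share the 3 control libraries. The procedure was tested on simulated data with known changes.

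Genes named are both targets, the 14 largest differences in each direction (mean of at least 5 FPKM in the higher group, a symbol that is not a clone name, groups that do not overlap), up to 4 members per list with the smallest adjusted p and up to 3 members against a list's direction, 6 genes with the smallest difference at 20 FPKM or more, and 2 genes on each side of the expression minimum. Some genes that this rule names are not reported here. Other members given by their difference alone illustrate a list and were picked with their values in view. The members, lists and tests were chosen with earlier results of these data known. Replicates of 1 group differed by more than sampling noise (chi-square per gene 2.07 to 20.1), so no library was counted as a copy. Alternatives were other pseudocounts, expression minimums, scalings and fits, recovered reads as CPM, each library left out, a replicate block and, chosen after seeing the data, removal of GC and length trends.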

Additional observations from a re-analysis of the deposited data

How the results depend on the processing

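The limits are 3 libraries per group, unknown independence of replicates, and siKDM5C replicates that spread more than siSIRT6 replicates. The count of genes higher in siSIRT6 (2675) ranged from 1670 to 3305, and that of genes lower (3078) from 1924 to 3562, when 1 library was left out. The low ends came from leaving out siSIRT6 replicate 1 (1690 higher), 2 (1670 higher, 1964 lower) or 3 (1679 higher, 1924 lower), and the high ends from leaving out siKDM5C replicate 2. A minimum of 5 FPKM, which tested 8886 genes, gave 1959 lower. Counts of at least 1 log2 unit (163 higher, 173 lower) followed the scale, at 337 and 404 with a pseudocount of 0.1, 55 and 40 with a pseudocount of 5, and 359 and 419 with log2 CPM of recovered reads, and 102 lower among protein-coding genes alone. The replicate block gave 2396 higher and 2701 lower. Same-numbered libraries correlated in their deviations at -0.027, 0.069 and 0.091, so the numbers were not taken to pair the samples. Median-of-ratios scaling gave 2885 higher and 2847 lower, and quantile normalization 2933 and 2910. Of 208 named genes past the threshold, 183 held their call in all 18 alternatives, 25 lost it in at least 1 and 0 reversed. Of 43 list medians 11 changed sign in at least 1 alternative, none of them among the 12 of at least 0.25 in size. The causes of these changes were not tested beyond the fewer genes or libraries that a setting holds.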

Other observations

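Several classes of non-coding RNA had more genes called lower than higher in siSIRT6, as did all genes tested (19.8% lower and 17.2% higher). Of 336 tested long intergenic RNAs 36 were higher and 94 were lower, with a median difference of -0.14, while 2235 of 11308 protein-coding genes were higher and 2316 were lower, with a median of -0.01. Of 526 processed pseudogenes 36 were higher and 90 were lower (median -0.17), of 356 microRNA genes 23 and 47 (median -0.18), and of 209 small nucleolar RNA genes 6 and 22 (median -0.19). The share called in either direction was 38.7% for long intergenic RNAs, near the 37.1% of all genes tested. It was below that share for processed pseudogenes (24%), microRNA genes (19.7%) and small nucleolar RNA genes (13.4%). Antisense genes were nearer to the protein-coding ones, with 221 of 1602 higher and 272 lower (median -0.02, 30.8% called against 40.2% of protein-coding genes). Among 18 RNAs that overlap the 3' end of another gene 6 were higher and 1 was lower (median 0.17, 38.9% called). Of 22 mitochondrial tRNA genes 4 were higher and 4 were lower (median 0.09, 36.4% called). These classes were looked at after their values were seen, many of their members overlap other genes, and they were measured in libraries made with a kit for mRNA. Across 15313 genes the difference correlated with GC percent at a Pearson r of -0.11 and with log2 length at 0.10, both over genes, which are not independent replicates.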
